A study of Mus musculus with 8 samples.

Results

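The NRF2 oxidative stress programme was followed through 10 genes in mouse bone marrow-derived macrophages (BMDMs). The genes were the transcription factor Nfe2l2 (NRF2), its inhibitor Keap1 and 8 known targets (Hmox1, Nqo1, Gclc, Gclm, Txnrd1, Srxn1, Slc7a11 and Prdx1). They were chosen by name, and they and the lists read beside them were chosen with earlier results of these data known. The 10 were matched to Ensembl identifiers, and all 10 were found among the 54532 genes counted. All 10 also passed the filter on low counts that left 14591 genes for testing. The comparison asks whether H151, a STING antagonist that reacts with cysteines, raised these genes, with SN-011, an antagonist that binds STING in another way, beside it.

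RNA was measured by RNA-Seq in 8 libraries, 2 in each of 4 groups. Wild-type (WT) BMDMs and Trex1-/- BMDMs (Trex1-KO) received the vehicle DMSO for 12 h, Trex1-KO BMDMs received H151 at 500 nM for 12 h, and Trex1-KO BMDMs received SN-011 for 12 h. No label states the dose of SN-011, and the study's methods give it the same figure as H151. No WT cells were given an antagonist, so each antagonist was compared only with Trex1-KO cells. Marrow came from mice of 6 to 8 weeks, and all cells grew for 7 days in medium conditioned by L929 cells that held 50 µM β-mercaptoethanol, a thiol that itself takes part in redox chemistry. TREX1 is the DNA exonuclease whose loss lets self DNA activate cGAS-STING signalling. The study describes its replicates as independent experiments, but the labels do not say whether they came from separate animals or cultures, so p-values measure only the spread between these libraries.

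NRF2 is made continually and destroyed continually. KEAP1 holds it on the CUL3 ubiquitin ligase, and when electrophiles or oxidants modify cysteines of KEAP1, NRF2 escapes, pairs with a small MAF protein and binds antioxidant response elements near its targets. The targets make glutathione, rebuild thioredoxin and peroxiredoxins, and break down haem and quinones. Because NRF2 is controlled mainly as a protein, the RNA of its targets is the usual readout of its activity in macrophages, and the RNA of Nfe2l2 itself is not. H151 binds STING covalently at a cysteine.

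Total counts ran from 11845470 to 17284863 per library. Levels are given in CPM (counts scaled by the TMM-normalized library total), and 1 count was worth 0.0581 to 0.0848 CPM. Trex1 had 0 counts in all 8 libraries, WT included, and its exons are shared with Atrip, so the knockout could not be checked on its own gene. The 6 macrophage markers summed to between 29266 and 31593 CPM in the 8 libraries, a sum carried by Lyz2 (20271 to 23047 CPM). Among them Cd68 (log2 fold change 0.44, edgeR adjusted p = 0.000208) and Adgre1 (0.19, adjusted p = 0.0249) rose in Trex1-KO against WT. All 12 interferon-stimulated genes listed as a check rose in Trex1-KO against WT (median log2 fold change 2.31), where 9.27% of all genes did. All 12 fell with H151 (median -1.50), where 1.84% of all genes did, and with SN-011 (median -1.26), where 2.22% did.

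H151 raised 2 of the 10 genes, Gclm by 1.30-fold and Hmox1 by 1.21-fold, at the threshold of 0.05 on the adjusted p of the edgeR fit, and lowered none. Of all genes tested, 0.384% were called higher. Both calls were lost when only those 2 groups were fitted (edgeR adjusted p = 0.0910 and 0.104) and without Trex1-KO replicate 1 or H151 replicate 1. The other 6 targets had positive log2 fold changes that did not pass the test, from 0.09 for Prdx1 to 0.98 for Nqo1. Nfe2l2 and Keap1 had negative ones. With SN-011, none of the 10 passed the test. The 2 genes that H151 raised were also the 2 that fell in Trex1-KO against WT, and both comparisons use the same Trex1-KO libraries.

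Matches to the core of the antioxidant response element, TGACNNNGC on either strand, are shown for the members that held one, since this is the element through which NRF2 acts. RefSeq promoter windows (250 bases before to 50 after a start, build GRCm38.p6) were held for 8 of the 10 genes, in 10 windows. Hmox1 and Gclc had no entry. The core was present in 5 of the 10 windows, 1 for each of 5 genes, Nfe2l2 among them. Over all 32851 windows it was present in 12.4%. Keap1, Nqo1 and Slc7a11 held no match in these windows, which says only that these letters are not there. Capitals mark the match, each sequence runs 5′ to 3′ on the gene's strand, and for Gclm, the called gene with a window, the whole 250 bases before the start are given (chr3:122245307-122245556, plus strand, match 134 bases before the start).
Gclm: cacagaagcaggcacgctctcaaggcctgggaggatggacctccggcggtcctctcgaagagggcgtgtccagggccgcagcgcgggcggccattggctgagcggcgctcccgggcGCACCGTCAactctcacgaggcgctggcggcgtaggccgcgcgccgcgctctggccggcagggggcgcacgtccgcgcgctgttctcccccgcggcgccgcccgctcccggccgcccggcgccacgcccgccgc
The other 4 are given as short pieces around the match, at chr10:82859089-82859147 for Txnrd1 (plus strand, 92 bases before 1 of its 3 starts), chr4:116685441-116685499 for Prdx1 (plus strand, 133 bases before the start), chr2:75704870-75704913 for Nfe2l2 (minus strand, 240 bases before the start, printed along the gene) and chr2:152105542-152105570 for Srxn1 (plus strand, 28 bases after the start).
Txnrd1: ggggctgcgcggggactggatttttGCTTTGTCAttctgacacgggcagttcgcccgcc
Prdx1: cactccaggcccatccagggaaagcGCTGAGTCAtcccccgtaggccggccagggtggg
Nfe2l2: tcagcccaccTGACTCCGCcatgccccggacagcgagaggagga
Srxn1: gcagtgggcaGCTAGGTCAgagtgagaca
The match in Prdx1 shares bases with the AP-1 motif TGACTCA, which was present in 5.2% of all windows. Of the 2 genes that H151 raised, a window was held for Gclm alone, so the motif could not be set against the response.

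**Figure D1:**
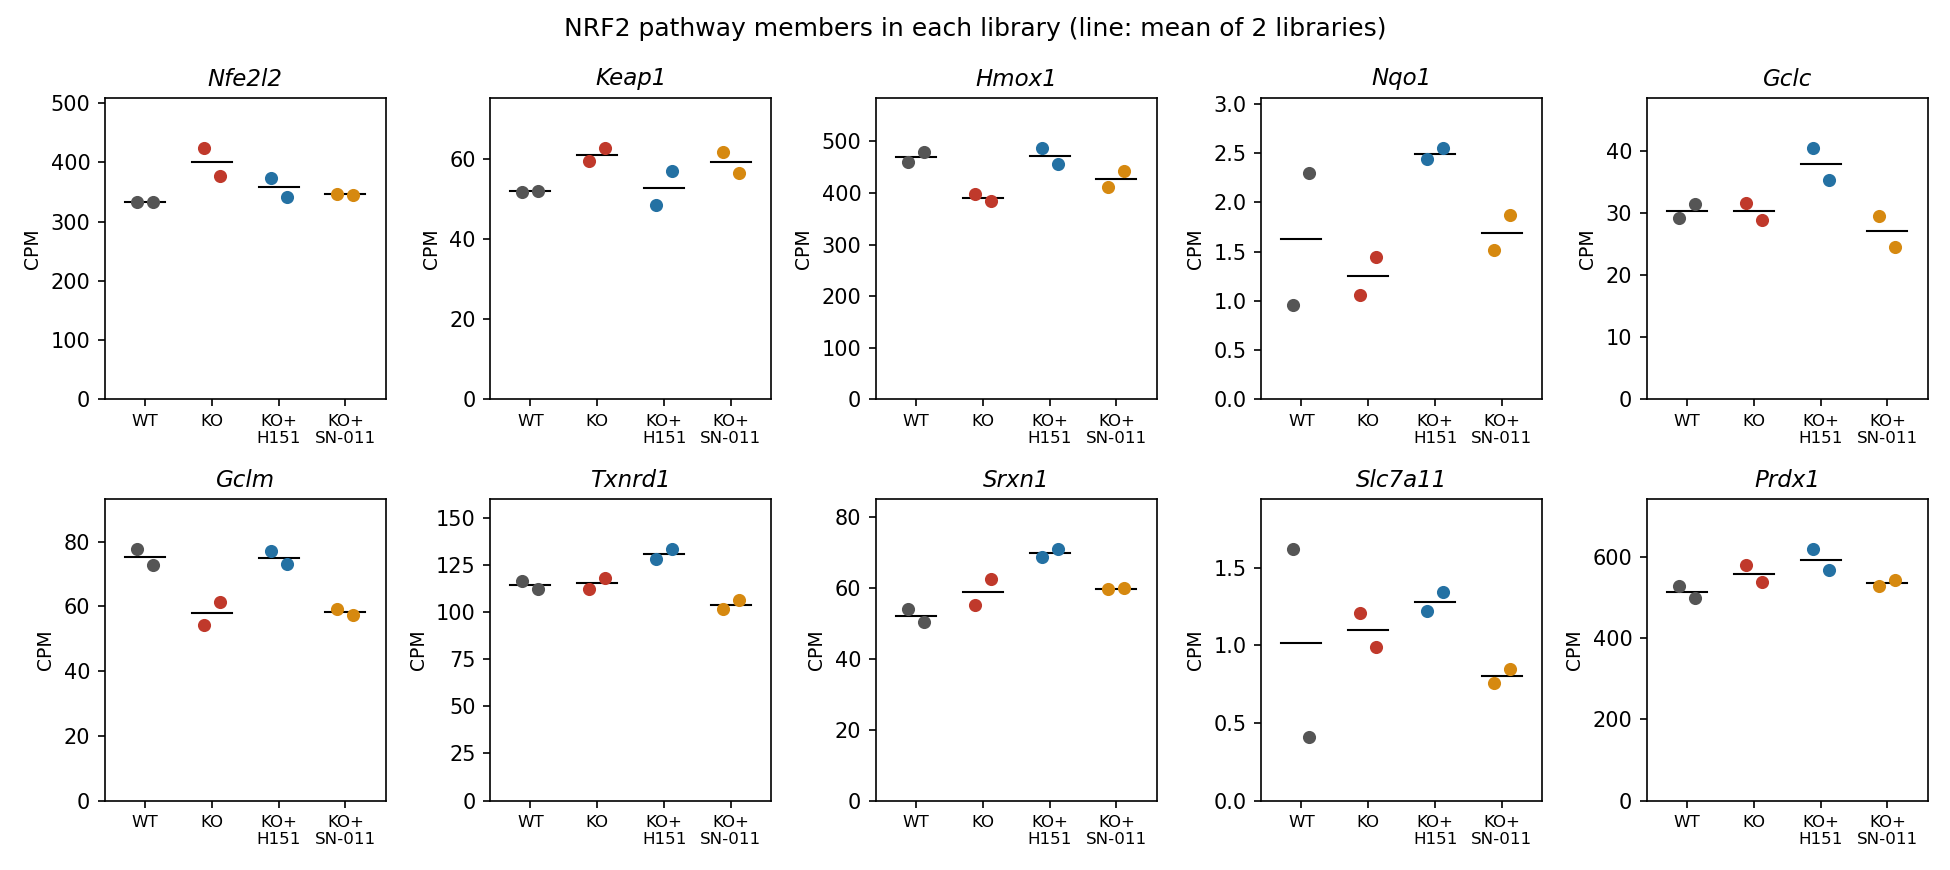
CPM of each of the 10 genes in the 8 libraries (vertical axis, 1 panel a gene with its own scale; points are single libraries, lines are group means of 2). Gclm and Hmox1 sit lower in both Trex1-KO libraries (54.3 and 61.4 CPM, 397 and 384 CPM) than in WT and in H151-treated cells.

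Nfe2l2 (ENSMUSG00000015839, chr2:75675513-75704641 of GRCm38, minus strand) encodes NRF2. It was at 333 and 333 CPM in WT, 424 and 376 in Trex1-KO, 374 and 341 with H151 and 347 and 345 with SN-011. The 2 Trex1-KO libraries were the highest of the 8, and those of the antagonists overlapped each other. Nfe2l2 rose in Trex1-KO against WT (log2 fold change 0.27 ± 0.07 SE, Benjamini-Hochberg adjusted p = 0.0132 in edgeR's quasi-likelihood test). Both antagonists had lower values than Trex1-KO that did not pass the edgeR test, at -0.16 with H151 (95% interval -0.31 to -0.02, adjusted p = 0.420) and -0.21 with SN-011 (-0.35 to -0.07, adjusted p = 0.168). The rise in Trex1-KO no longer passed the edgeR test on total counts without TMM factors (adjusted p = 0.0924), nor without WT replicate 1, WT replicate 2 or Trex1-KO replicate 1 (adjusted p from 0.0942 to 0.213).

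Keap1 (ENSMUSG00000003308, chr9:21229730-21239361, minus strand) encodes the cysteine-rich sensor that holds NRF2 for degradation. Its values were 51.6 and 52.0 CPM in WT, 59.4 and 62.6 in Trex1-KO, 48.4 and 56.9 with H151 and 61.5 and 56.5 with SN-011. The H151 libraries lay below both Trex1-KO libraries and overlapped WT and SN-011. No comparison of Keap1 passed the edgeR test on all 8 libraries. The log2 fold change was 0.24 in Trex1-KO against WT (adjusted p = 0.0876) and -0.21 with H151 (95% interval -0.40 to -0.02, adjusted p = 0.431). In a fit of just Trex1-KO and WT, the edgeR adjusted p of Keap1 was 0.0482. Of its exonic bases, 10.9% also belong to Gm16754, so its count may miss reads from there.

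Hmox1 (ENSMUSG00000005413, chr8:75093621-75100589, plus strand) encodes haem oxygenase 1, which opens the haem ring and releases iron, carbon monoxide and biliverdin. It stood at 460 and 480.0 CPM in WT, 397 and 384 in Trex1-KO, 487 and 456 with H151 and 411 and 442 with SN-011. Both H151 libraries were above both Trex1-KO and both SN-011 libraries, and they interleaved with WT. Hmox1 rose with H151 against Trex1-KO (log2 fold change 0.27 ± 0.06, 95% interval 0.14 to 0.40, edgeR adjusted p = 0.0289). That call was lost without Trex1-KO replicate 1, Trex1-KO replicate 2 or H151 replicate 1 (edgeR adjusted p from 0.0854 to 0.199). With SN-011 the log2 fold change was 0.12 (-0.00 to 0.25, edgeR adjusted p = 0.427). The direct difference between H151 and SN-011 was 0.15 (0.02 to 0.27) and did not pass the edgeR test (adjusted p = 0.525). Hmox1 fell in Trex1-KO against WT (-0.27 ± 0.06, edgeR adjusted p = 0.00637), and without WT replicate 2 that call was lost (adjusted p = 0.0544).

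Nqo1 (ENSMUSG00000003849, chr8:107388225-107403206, minus strand) encodes a quinone reductase and is often used as the standard NRF2 target. In these cells it was near the limit of detection, with 13 to 38 counts per library. It was at 0.96 and 2.30 CPM in WT, 1.06 and 1.45 in Trex1-KO, 2.44 and 2.55 with H151 and 1.51 and 1.87 with SN-011. Both H151 libraries were the highest of the 8, but the WT libraries spanned almost the whole range. The log2 fold change with H151 was 0.98 ± 0.40, a 1.97-fold ratio, with a 95% interval of 0.11 to 1.85 on the log2 scale, and it did not pass the edgeR test (adjusted p = 0.421).

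Gclc and Gclm encode the catalytic and the modifier subunit of glutamate-cysteine ligase, the rate-limiting enzyme of glutathione synthesis. Gclm (ENSMUSG00000028124, chr3:122245557-122270732, plus strand) was at 77.6 and 73.0 CPM in WT, 54.3 and 61.4 in Trex1-KO, 77.2 and 73.0 with H151 and 59.3 and 57.3 with SN-011. The H151 values lay at the WT level and the SN-011 values lay between the 2 Trex1-KO values, with a gap between these pairs of groups. Gclm rose with H151 (log2 fold change 0.37 ± 0.08, 95% interval 0.21 to 0.54, edgeR adjusted p = 0.0197), and it fell in Trex1-KO against WT (-0.38 ± 0.08, edgeR adjusted p = 0.00373). The rise with H151 was lost without Trex1-KO replicate 1 (edgeR adjusted p = 0.213) or H151 replicate 1 (adjusted p = 0.105). With SN-011 the log2 fold change was 0.01, with an interval of -0.16 to 0.18, and did not pass the edgeR test. The difference between H151 and SN-011 was 0.36 ± 0.08 (0.19 to 0.53). It did not pass the edgeR quasi-likelihood test over all genes (adjusted p = 0.149), whereas edgeR's exact negative binomial test gave an adjusted p of 0.0164. Of the exonic bases of Gclm, 4.7% also belong to Gm17494 or Gm6061, so its count may miss reads from there.

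Gclc (ENSMUSG00000032350, chr9:77754535-77794485, plus strand) was at 29.3 and 31.5 CPM in WT, 31.7 and 28.9 in Trex1-KO, 40.5 and 35.4 with H151 and 29.6 and 24.6 with SN-011. Both H151 libraries were above the 6 others, while WT and Trex1-KO overlapped. The log2 fold change with H151 was 0.32 ± 0.11 (0.08 to 0.56) and did not pass the edgeR test (adjusted p = 0.255). Between Trex1-KO and WT it was -0.01 (-0.25 to 0.24). Against SN-011 the H151 value was higher by 0.47 ± 0.11 on the log2 scale (0.23 to 0.71), with an edgeR quasi-likelihood adjusted p of 0.217 and an exact negative binomial adjusted p of 0.0252.

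Slc7a11 (ENSMUSG00000027737, chr3:49892526-50443614, minus strand) encodes the cystine importer that feeds this pathway. Only 6 to 22 counts per library were seen. Its values were 1.62 and 0.41 CPM in WT, 1.21 and 0.99 in Trex1-KO, 1.22 and 1.34 with H151 and 0.76 and 0.85 with SN-011. The WT libraries alone were farther apart than any other pair of libraries. The log2 fold change with H151 was 0.23 with an interval of -0.87 to 1.34 (edgeR adjusted p = 0.974), so a change of either direction was not detectable at this depth. Its transcript also holds stretches of up to 375 bases that are near-identical to 9 other genes, tubulin genes among them, which makes its count uncertain.

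Txnrd1 (ENSMUSG00000020250, chr10:82833951-82897712, plus strand) encodes the selenoprotein that reduces thioredoxin with NADPH. It was at 117 and 112 CPM in WT, 112 and 118 in Trex1-KO, 128 and 133 with H151 and 102 and 107 with SN-011. The H151 libraries were the 2 highest and the SN-011 libraries the 2 lowest of the 8. Neither antagonist passed the edgeR test against Trex1-KO, at 0.18 for H151 (95% interval 0.05 to 0.32, adjusted p = 0.261) and -0.15 for SN-011 (-0.29 to -0.01, adjusted p = 0.348). Between the antagonists the log2 difference was 0.33 ± 0.06 (0.20 to 0.47). Its adjusted p was 0.0711 by edgeR's quasi-likelihood test, 0.00675 by edgeR's exact negative binomial test and 0.0445 by DESeq2.

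Srxn1 (ENSMUSG00000032802, chr2:152105516-152111376, plus strand) encodes sulfiredoxin, which repairs over-oxidised peroxiredoxins. It stood at 54.1 and 50.3 CPM in WT, 55.2 and 62.6 in Trex1-KO, 68.7 and 70.8 with H151 and 59.6 and 60.0 with SN-011. Both H151 libraries were above the 6 others, and the SN-011 libraries fell between those of Trex1-KO. The log2 fold change with H151 was 0.24 ± 0.08 (0.07 to 0.41) and did not pass the edgeR test (adjusted p = 0.212).

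Prdx1 (ENSMUSG00000028691, chr4:116685544-116700822, plus strand) encodes the peroxiredoxin that removes hydrogen peroxide. Its values were 529 and 499 CPM in WT, 581 and 538 in Trex1-KO, 619 and 569 with H151 and 528 and 543 with SN-011. The H151 and Trex1-KO libraries overlapped. The log2 fold change with H151 was 0.09 with an interval of -0.05 to 0.22 (edgeR adjusted p = 0.798). Near-identical copies of Prdx1 (Gm21399 and Gm7204) could share some of its reads.

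Per kilobase of exon, which allows genes to be set beside each other, Hmox1 and Prdx1 were the highest of the 10, at 268 ± 8.14 and 169 ± 6.90 CPM per kb in WT (SD, n = 2). Nfe2l2 followed at 87.7 ± 0.0175 CPM per kb. Srxn1, Txnrd1, Gclm, Keap1 and Gclc lay between 8.07 and 18.5 CPM per kb, and Nqo1 (1.05) and Slc7a11 (0.0727) were the lowest.

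Read as a group, 8 of the 10 genes had positive log2 fold changes with H151, where 50.3% of all genes did, and the median was 0.24, against 0.00 over all genes tested. Of all genes tested in that comparison, 2.23% were called, 0.384% as higher and 1.84% as lower, and the 10 genes held 2 called as higher and 0 as lower. At an unadjusted p under 0.05, 8 of the 10 were past the threshold, 6 of them higher, where 9.36% of all genes were. Both H151 libraries lay above both Trex1-KO libraries for 7 of the 10, where 17.5% of all genes did, and below them for 2 (Nfe2l2 and Keap1), where 17.9% did. These 2 calls depended on single libraries: without Trex1-KO replicate 1 or H151 replicate 1, 0 of the 10 were called, and without Trex1-KO replicate 2, only Gclm was. When the fit held just the 2 groups compared, 0 were called, with edgeR adjusted p-values of 0.0910 for Gclm and 0.104 for Hmox1.

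With SN-011 against Trex1-KO, 0 of the 10 genes were called by edgeR, where 2.33% of all genes were, 0.11% as higher and 2.22% as lower. An unadjusted p under 0.05 was found for 2, Nfe2l2 and Txnrd1, both with negative log2 fold changes, where 12.0% of all genes passed that threshold. DESeq2 and edgeR's exact negative binomial test also called 0, and a filter at 1 count called 1, Nfe2l2, as lower (edgeR adjusted p = 0.0248). The median log2 fold change was -0.05 (0.01 over all genes), and 4 of the 10 were positive, where 52.1% of all genes were. The median was -0.027 on total counts and -0.0060 without SN-011 replicate 2. Both SN-011 libraries lay above both Trex1-KO libraries for 2 (21.8% of all genes) and below them for 3 (21.6%), and the groups overlapped for 5.

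**Figure D2:**
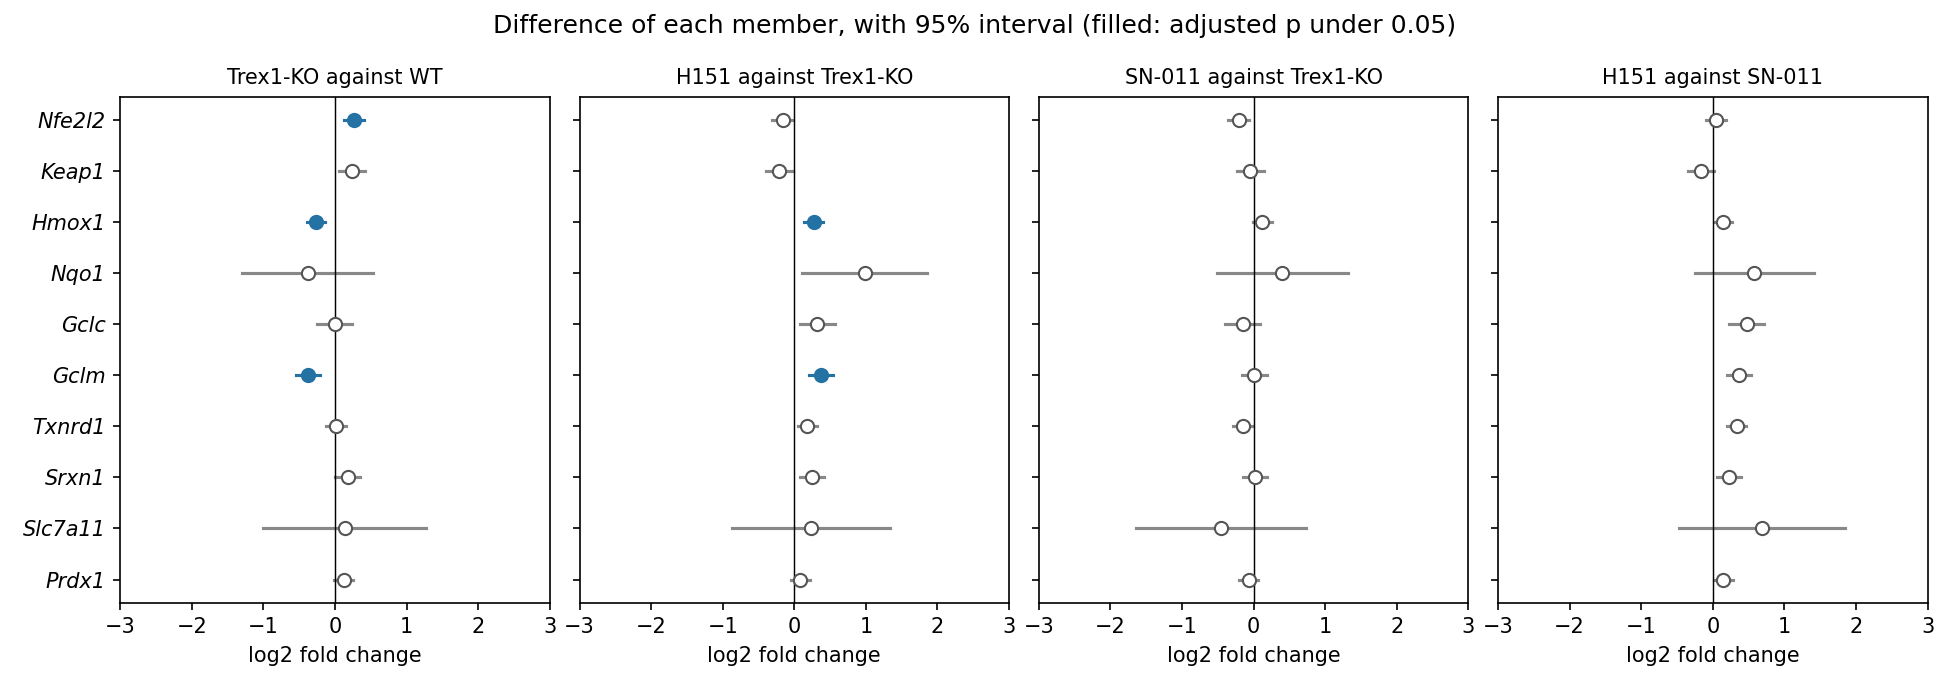
Log2 fold change of each of the 10 genes in the 4 comparisons, with 95% intervals from the edgeR fit as bars and filled points for genes past the threshold of 0.05 on the adjusted p. With H151, Hmox1 (0.27) and Gclm (0.37) were filled, none was with SN-011 or between the antagonists, and the intervals of Nqo1 and Slc7a11 were the widest.

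The difference between the antagonists themselves was tested directly. By edgeR's quasi-likelihood test 0 of the 10 genes were called between H151 and SN-011, where 0.158% of all genes were. At an unadjusted p under 0.05 there were 6 (Hmox1, Gclc, Gclm, Txnrd1, Srxn1 and Prdx1), all higher with H151, where 8.91% of all genes passed that threshold. Both H151 libraries lay above both SN-011 libraries for all 8 targets, where 20.0% of all genes tested did, and for neither Nfe2l2 nor Keap1. They lay below for 0 of the 10, where 19.7% of all genes did. The median over the 10 genes was 0.28, and 9 were positive, where 49.2% of all genes were. The result depended on the test: edgeR's exact negative binomial test called 3 (Gclc, Gclm and Txnrd1), where it called 0.576% of all genes, DESeq2 called 1 (Txnrd1), where it called 0.308%, and a filter at 1 count called 3, where 0.983% of all genes were called. Without H151 replicate 2, 2 were called, where 1.92% of all genes were, and without each other library 0. The SN-011 libraries carry another treatment text than the other 6. A batch limited to them cannot be told apart from the treatment in any comparison that holds them.

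In Trex1-KO against WT, Nfe2l2 rose and Hmox1 and Gclm fell, 3 of the 10 genes, where 16.4% of all genes were called, 9.27% as higher and 7.11% as lower. An unadjusted p under 0.05 was found for 5, where 27.2% of all genes passed. The median was 0.07 against -0.00 over all genes, and 6 were positive, where 49.5% of all genes were. The median was -0.018 on total counts, -0.0029 at a minimum count of 30 and 0.0058 without Trex1-KO replicate 1, so its direction was not settled. Both Trex1-KO libraries lay above both WT libraries for 4 of the 10 (28.6% of all genes) and below them for 2 (27.5%). Without WT replicate 2, only Gclm was called. The 8 targets did not move one way, with 4 positive and 4 negative log2 fold changes.

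Markers of other cells differed between the groups. The 5 stromal markers, led by Col1a2, had summed CPM of 2059 to 2248 in WT, 843 to 1040 in Trex1-KO, 1084 to 1192 under H151 and 914 to 1099 under SN-011, and 1 of them stayed under 1 CPM. The sums were lower in Trex1-KO than in WT and higher with H151 than in Trex1-KO, as Gclm and Hmox1 were. They were carried by the collagens: Col1a1, Col1a2 and Col3a1 fell in Trex1-KO against WT, whereas Dcn stood at 1.76 and 2.57 CPM in WT and at 3.09 and 2.90 in Trex1-KO, and Lum at 0.44 and 0.34 against 0.53 and 0.79. Only Col1a1 and Col1a2 had both H151 libraries above both Trex1-KO libraries. The 7 neutrophil markers, led by S100a9, summed to 7.65 to 7.85 CPM in WT and to between 49.9 and 79.7 CPM in the other 3 groups, and 3 of them stayed under 1 CPM. The part of either in the results was not tested, and in bulk RNA fewer cells of a type and less RNA per cell cannot be told apart. The 4 B cell markers stayed under 1 CPM, and the 5 T cell markers were at 0 in 1 case and under 1 CPM in 4. Cd4, at 18.1 to 33.9 CPM, fell in Trex1-KO against WT (log2 fold change -0.68, edgeR adjusted p = 0.000329). It was at 33.9 and 33.3 CPM in WT and 21.6 and 20.3 in Trex1-KO. Of 5 dendritic cell markers 2 were at 0, and the summed erythroid and mast cell markers reached 2.04 and 1.81 CPM at most.

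**Figure D3:**
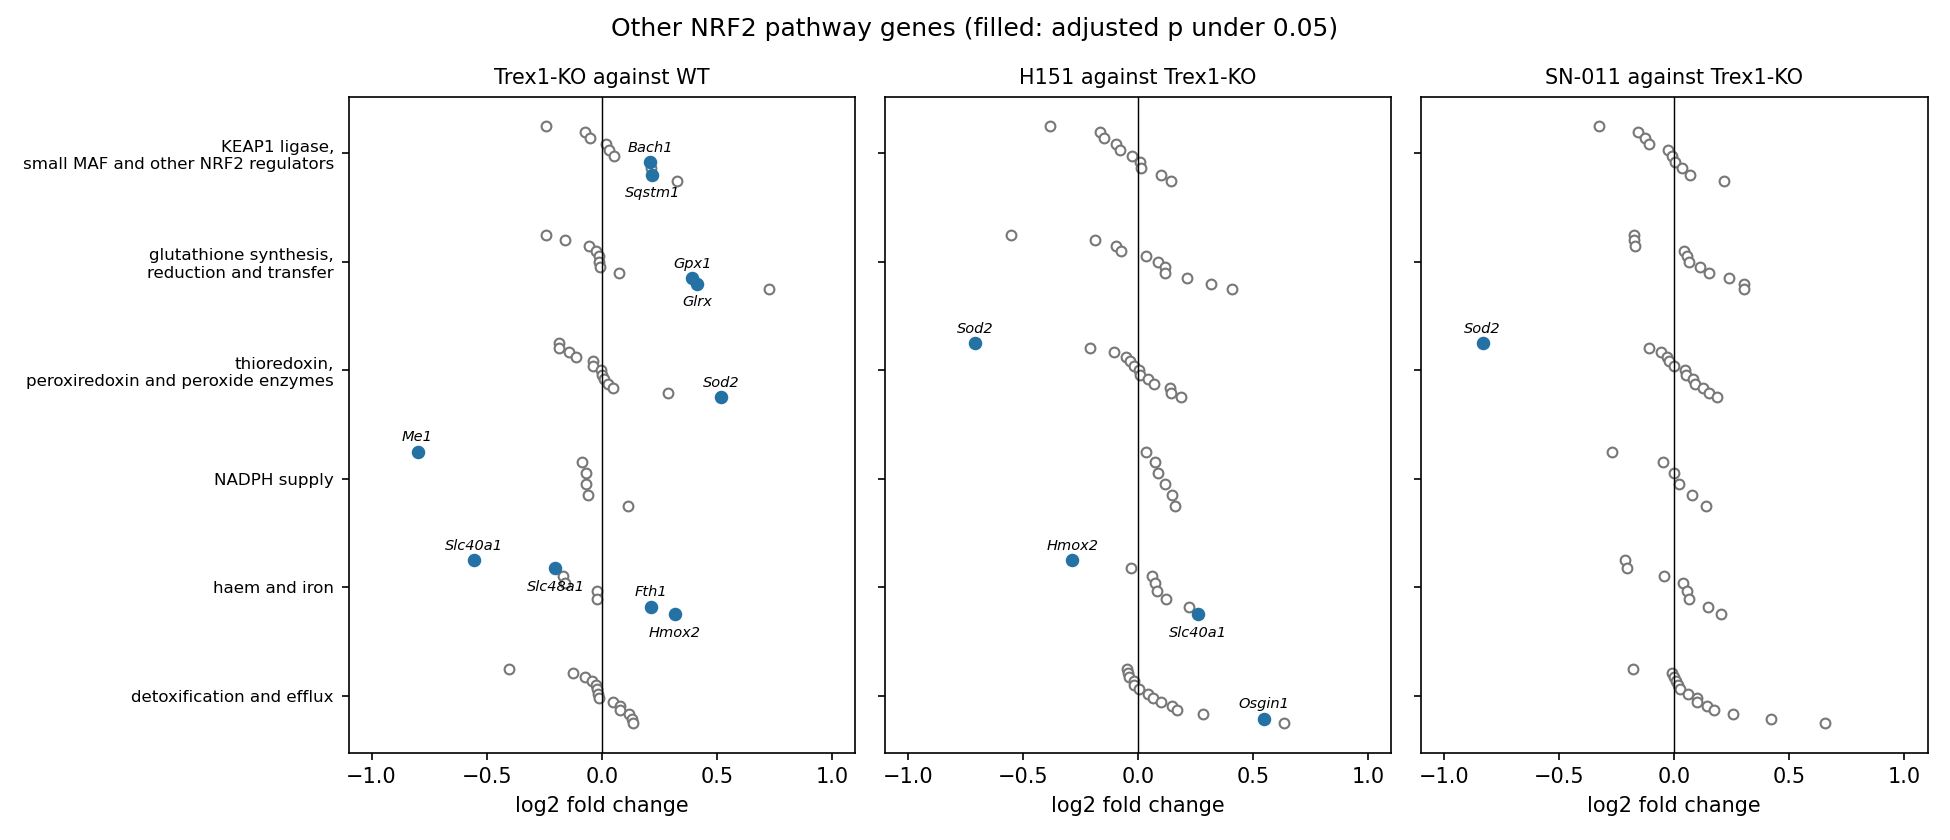
Log2 fold change (horizontal axis) of 62 other NRF2 pathway genes in 6 lists (rows) and 3 comparisons (panels), each point a gene, filled and named where the edgeR adjusted p was under 0.05. Osgin1 (0.55) stood farthest right of the called genes with H151, and Sod2 was the called gene farthest left with H151 (-0.71) and with SN-011 (-0.83).

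The rest of the pathway was read from 6 lists of 67 genes, 62 of them tested. With H151, 2 of the 62 rose, 2 fell, and 58 did not pass the test, with a median log2 fold change of 0.04, where all genes gave 0.384% higher and 1.84% lower calls. Under SN-011, 1 fell and 61 did not pass, where all genes gave 0.11% higher and 2.22% lower calls. Among the 62, 14 passed an unadjusted p of 0.05 with H151, where 9.36% of all genes did, and 10 with SN-011, where 12.0% did. The 4 calls with H151 became 2 without Trex1-KO replicate 1, Trex1-KO replicate 2 or H151 replicate 1. Between H151 and SN-011, 0 of the 62 were called by edgeR's quasi-likelihood test, and edgeR's exact negative binomial test called 1. An unadjusted p of 0.05 was passed by 15 (8.91% of all genes), in both directions, such as Gsr (0.49) and Rbx1 (-0.30). Of the 62 log2 differences 29 were positive and 33 negative, with a median of -0.0077.

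The genes that rose with H151 were Osgin1 and Slc40a1. Osgin1, an oxidative stress-induced growth inhibitor often counted among NRF2 targets, was at 21.5 and 24.3 CPM in WT, 23.7 and 21.7 in Trex1-KO, 34.3 and 32.1 with H151 and 24.6 and 26.8 with SN-011. Both H151 libraries were above the 6 others. Its log2 fold change with H151 was 0.55 ± 0.10 (edgeR adjusted p = 0.0111), and it was 0.17 (-0.06 to 0.40, edgeR adjusted p = 0.557) with SN-011. The direct difference was 0.37 (0.15 to 0.60, edgeR adjusted p = 0.330). The rise with H151 was lost without Trex1-KO replicate 2 (edgeR adjusted p = 0.122) or H151 replicate 1 (0.0625).

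Slc40a1, the iron exporter ferroportin, was at 598 and 648 CPM in WT, 407 and 440 in Trex1-KO, 498 and 517 with H151 and 473 and 502 with SN-011. Both antagonists lay between Trex1-KO and WT, and overlapped each other. It rose with H151 (0.26 ± 0.06, edgeR adjusted p = 0.0462), stood at 0.20 with SN-011 (0.07 to 0.34, adjusted p = 0.149), and fell in Trex1-KO against WT (-0.56). Its rise with H151 was lost in the fit of just those 2 groups (edgeR adjusted p = 0.142) and without Trex1-KO replicate 1 (0.333) or H151 replicate 2 (0.126).

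Sod2 and Hmox2 fell with H151. Sod2, the mitochondrial superoxide dismutase, is also induced by NF-κB and interferon. Its values were 86.7 and 59.8 CPM in WT, 107 and 102 in Trex1-KO, 62.9 and 65.1 with H151 and 59.8 and 57.7 with SN-011. It fell with H151 (-0.71 ± 0.12, edgeR adjusted p = 0.00517) and with SN-011 (-0.83 ± 0.12, edgeR adjusted p = 0.00156). Hmox2, the constitutive haem oxygenase, was at 110 and 115 CPM in WT, 141 and 139 in Trex1-KO, 113 and 117 with H151 and 121 and 121 with SN-011. It fell with H151 (-0.28 ± 0.06, edgeR adjusted p = 0.0192), and the value of -0.21 with SN-011 did not pass the test (adjusted p = 0.0960). The fall of Hmox2 with H151 was lost in the fit of just those 2 groups (edgeR adjusted p = 0.0914) and without Trex1-KO replicate 1 (0.130), Trex1-KO replicate 2 (0.0942) or H151 replicate 1 (0.116), while Sod2 stayed called in each of these. Hmox1 rose and Hmox2 fell with H151, and in Trex1-KO against WT Hmox1 fell and Hmox2 rose, with the Trex1-KO libraries shared by both comparisons.

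By branch, none of the 10 regulators of KEAP1 and NRF2 (CUL3, small MAF proteins, BACH1 and others) and none of the 11 tested glutathione genes passed the edgeR test with either antagonist, while 2 in each list passed an unadjusted p of 0.05 with H151, where 9.36% of all genes did. None of the 6 NADPH-supplying enzymes passed with H151, all 6 had positive log2 fold changes, and these lay between 0.04 and 0.16. In Trex1-KO against WT 7 of the 62 rose and 3 fell, and these 10 calls became 5 without WT replicate 2 and 6 without Trex1-KO replicate 1. The 10 calls stood at about the share of all genes, of which 16.4% were called, 9.27% higher and 7.11% lower. Those that rose were Sod2 (0.52), Glrx (0.41), Gpx1 (0.39), Hmox2 (0.32), Sqstm1 (0.22), Bach1 (0.21) and the ferritin heavy chain gene Fth1 (0.21). Those that fell were Me1 (-0.80), Slc40a1 (-0.56) and Slc48a1 (-0.20). The calls of Sqstm1, Bach1 and Slc48a1 were each lost without any 1 of the 4 libraries, those of Glrx and Sod2 without WT replicate 2, that of Glrx without Trex1-KO replicate 2 and that of Fth1 without Trex1-KO replicate 1. On total counts without TMM factors Sqstm1, Bach1 and Fth1 were not called.

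Other stress programmes that reactive compounds can call on were read beside it. Tested were 10 genes of ATF4 amino acid stress (ATF4 genes, Atf4 itself among them), 10 HSF1 heat shock genes and 3 metallothionein-related genes. Of these, 0 were called by edgeR with either antagonist. At an unadjusted p under 0.05 there were 2, 2 and 1 with H151, where 9.36% of all genes passed, and 0, 1 and 2 with SN-011, where 12.0% did. With H151, 9 of the 10 ATF4 genes had positive log2 fold changes (median 0.21) and 7 of the 10 HSF1 genes did (median 0.11). Among the NRF2 genes 8 of the 10 did (median 0.24), so a positive median was not particular to them. Both H151 libraries lay above both Trex1-KO libraries for 4 of the 10 ATF4 genes and 2 of the 10 HSF1 genes. They did so for 7 of the 10 NRF2 genes and for 17.5% of all genes. In Trex1-KO against WT, 4 of the 10 ATF4 genes fell, with Phgdh (-1.28) the farthest, and Atf3 rose (0.42). Of all genes, 7.11% were called lower and 9.27% higher in that comparison. Hspb1 (-0.97), Hspe1 (-0.42) and Mt1 (-0.30) also fell there. Without WT replicate 2, the calls of Hspe1 (edgeR adjusted p = 0.156) and Mt1 (0.0830) were lost, as was that of Hspe1 without WT replicate 1 (0.0876) or Trex1-KO replicate 1 (0.206) and that of Mt1 without Trex1-KO replicate 2 (0.0727).

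Of the 9 listed genes that make oxidants or electrophiles, 8 were tested, and 2 fell with each antagonist, where 1.84% of all genes were called lower with H151 and 2.22% with SN-011. Acod1 makes itaconate, a metabolite that modifies cysteines of KEAP1. It was at 13.6 and 1.69 CPM in WT, 43.9 and 38.7 in Trex1-KO, 5.78 and 5.17 with H151 and 2.85 and 2.80 with SN-011. Both antagonist groups lay below both Trex1-KO libraries, and the WT libraries were far apart. Acod1 fell with H151 (-2.92 ± 0.47, edgeR adjusted p = 0.00290) and with SN-011 (-3.86 ± 0.51, edgeR adjusted p = 0.000641). Cybb, the core of the phagocyte NADPH oxidase, was at 1262 and 1060.3 CPM in WT, 1754 and 1744 in Trex1-KO, 1347 and 1405 with H151 and 1354 and 1386 with SN-011, and it fell with both (-0.35 and -0.35). The fall of Cybb was lost with H151 without either Trex1-KO library (edgeR adjusted p = 0.0542 and 0.0507). Under SN-011 it was lost without Trex1-KO replicate 1 (0.0562), SN-011 replicate 1 (0.218) or SN-011 replicate 2 (0.127). By DESeq2 the adjusted p of Acod1 was 0.0538 with H151. Of the 8, 4 rose in Trex1-KO against WT, where 9.27% of all genes did, namely Acod1 (2.46), Xdh (0.64), Cybb (0.59) and Ncf4 (0.34). The call of Ncf4 was lost without WT replicate 2 (edgeR adjusted p = 0.0606), and DESeq2 gave Acod1 an adjusted p of 0.0626 there.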

How the data were processed

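RNA from 8 BMDM libraries (4 groups of 2, read with replicate numbers from sample titles) was sequenced by the authors and, per the labels, aligned to mm10 (GRCm38) with HISAT2. The deposited values are raw read counts for 54532 Ensembl genes. The study's methods name featureCounts and the submitters' processing notes HTSeq, and the strand setting is not given in the sources used here. Names and positions came from GENCODE mouse release 21.

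Genes were filtered with filterByExpr (minimum count 10, minimum total count 15), leaving 14591, and 1 edgeR 4.0.16 quasi-likelihood fit (R 4.3.3, TMM factors 0.973 to 1.04) held all libraries. The 4 comparisons were two-sided, with Benjamini-Hochberg adjustment over all 14591 genes. Genes under an adjusted p of 0.05 are said to be called, to rise or to fall. SEs derive from the F statistic. Near-identical copies were searched with BLAST+ 2.17.0 (95% identity over 150 bases). Alternatives were DESeq2 1.42.0, edgeR's exact test, other scalings and filters, a replicate block, 2-group fits and leaving out each library.

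The 10 genes and all lists were chosen with earlier results of these data known. Up to 3 called genes with the largest change per list and comparison were to be named. Slc48a1 and Ncf4, each named to complete a count, and Atf3 fall outside that rule. So do markers other than the highest of their list. Slc48a1 was chosen after its values were seen, and the others outside the rule are to be read in the same way. Ddit3 had 2 identifiers and was given no value.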

Additional observations from a re-analysis of the deposited data

Results flagged for a closer look

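Genes of the aryl hydrocarbon receptor (AhR) battery differed between the antagonists by a direct test of H151 against SN-011. In that test a batch limited to the SN-011 libraries cannot be told apart from the treatment. AhR is a sensor of planar aromatic ligands whose targets partly overlap with those of NRF2, Nqo1 among them. Of 6 listed genes 4 were tested (Cyp1a1 and Cyp1a2 had 0 counts), and 2 were called as higher with H151 than with SN-011, where 0.158% of all genes were. Ahrr, the AhR repressor, was at 16.4 and 18.3 CPM in WT, 16.1 and 14.6 in Trex1-KO, 32.0 and 32.3 with H151 and 14.9 and 11.6 with SN-011, and the log2 difference between the antagonists was 1.26 ± 0.13 (edgeR adjusted p = 0.00141). Cyp1b1, a cytochrome P450, was at 108 and 87.2 CPM in WT, 38.3 and 31.7 in Trex1-KO, 73.6 and 60.8 with H151 and 41.3 and 33.9 with SN-011, with a log2 difference of 0.82 ± 0.13 (edgeR adjusted p = 0.0270). The call of Cyp1b1 was lost without H151 replicate 1 (edgeR adjusted p = 0.0878), SN-011 replicate 1 (0.297) or SN-011 replicate 2 (0.396), with log2 differences from 0.68 to 0.98, and that of Ahrr was kept without each library. Both genes also rose with H151 against Trex1-KO, by 1.06 and 0.94 on the log2 scale, where 0.384% of all genes were called higher, and neither was called with SN-011. Ahr (-0.58) and Cyp1b1 (-1.48) fell in Trex1-KO against WT, where 7.11% of all genes did, and the call of Ahr was lost without WT replicate 2 (edgeR adjusted p = 0.0566) or Trex1-KO replicate 2 (0.0528). Groups of 2 libraries were too small for a test of single libraries that stand apart.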

How the results depend on the processing

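Over the values of the 10 single genes, 477 kept their direction and side of the threshold, 15 reversed, 12 were lost and 12 were gained. With H151 against Trex1-KO, fits of just the 2 groups called 0 of the 10 genes and 2 of the 62 wider pathway genes, and a further 1.5-fold threshold left 0 and 1. Leaving out a library gave 0 to 2 and 2 to 4. The median of 0.24 became 0.26 on total counts and 0.19 to 0.23 without a library. With SN-011, a filter at 1 count called 1 of the 10 (Nfe2l2) and 2 of the 62, and the median was -0.027 on total counts and -0.081 to -0.0060 without a library. Between the antagonists, the 10 genes gave 3 calls with a filter at 1 count, 3 by edgeR's exact test, 1 by DESeq2 and 0 to 2 without a library. The 62 gave 2 at that filter, 1 by the exact test and 0 to 3 without a library, and the median was 0.23 at a minimum count of 30. In Trex1-KO against WT, the 1.5-fold threshold left 0 of the 10 and 1 of the 62, and leaving out a library gave 1 to 3 and 5 to 8. The median there was -0.018 on total counts, 0.053 at 1 count, -0.0029 at a minimum of 30 and 0.0058 to 0.0886 without a library.

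Some signs reversed, none of them of a called value. In Trex1-KO against WT, Txnrd1 was -0.074 on total counts, -0.0030 at 1 count and -0.0029 at a minimum of 30. Without a library Txnrd1 ran from -0.030 to 0.035, Nqo1 from -0.88 to 0.38, Gclc from -0.086 to 0.061 and Slc7a11 from -0.57 to 1.39. Under SN-011 Keap1 ran from -0.11 to 0.016, Gclm from -0.071 to 0.10 and Srxn1 from -0.066 to 0.11, and between the antagonists Nfe2l2 ran from -0.022 to 0.11. Causes were not tested, apart from the fewer libraries that some settings hold. With a single library left in a group, it is assumed to vary like the others.

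The labels do not say what a shared replicate number marks. Deviations of same-numbered libraries correlated at 0.194 for H151 and Trex1-KO, -0.00554 for SN-011 and Trex1-KO, -0.0163 for the antagonists and 0.0609 for Trex1-KO and WT over 14591 genes. With the replicate number as a block, 2 of the 62 were called with SN-011, and 1 of the 10 (Txnrd1, adjusted p = 0.0433) between the antagonists. Depth limits Nqo1 and Slc7a11.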
